A study of Mus musculus with 91 samples.

Results

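The Cdx genes encode the caudal-related homeodomain transcription factors, and the mouse has 3 of them, Cdx1, Cdx2 and Cdx4. All 3 were found in the count table by their symbols, among 53379 genes counted. They were followed in 91 single cells of wild type MF1 mouse embryos, an outbred strain, dissected at the early head fold stage (about embryonic day 8.0). The tissue was the caudal lateral epiblast (CLE), the epiblast beside the primitive streak, and the dissected pieces carried some nascent mesoderm. Cells were sorted into wells by FACS and each was made into a Smart-seq2 library of full-length cDNA, which has no molecular identifiers, so several reads can come from 1 molecule. No treatment or mutation distinguished the cells. They were divided into 2 classes by 2 genes: 43 epiblast-like cells, with more Nkx1-2 than Aldh1a2, and 48 mesoderm-like cells, the remainder (47.3% and 52.7% of the cells). The levels of these 2 genes were within 4-fold of each other in 4 cells, 1 of them epiblast-like and 3 mesoderm-like. Nkx1-2 is a homeobox gene of the axial progenitor region, and Aldh1a2 encodes the enzyme that makes retinoic acid in early paraxial mesoderm.

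Cdx factors bind AT-rich sites and activate Hox genes, in particular those of the central part of each Hox cluster, and in the mouse they keep the posterior growth zone active while the trunk and tail are laid down. They respond to Wnt, Fgf and retinoic acid signals, and embryos that lack several of them have a shortened body axis. Outside the axis, Cdx2 is a factor of the trophectoderm, and Cdx1 and Cdx2 act in the intestinal epithelium. Cdx2 lies in the ParaHox cluster with Gsx1 and Pdx1.

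Markers fitted the class names: of 8 epiblast markers 7 had reads in at least 50% of the epiblast-like cells and 4 in at least 50% of the mesoderm-like cells, and of 8 mesoderm markers 2 and 8 did. No marker of trophoblast, endoderm, neural tissue, node or notochord, surface ectoderm, lateral mesoderm or blood vessels reached that share in either class. The epiblast-like cells had 1260653 to 3927737 counts (median 2450073) and reads in a median of 8172 genes. The mesoderm-like cells had 709866 to 4439571 counts (median 2589802) and reads in a median of 7835 genes. No embryo is named for any cell, so the 91 cells are 1 pooled sample, the SD describes cells and not embryos, no test between classes was made, and the intervals given for shares (exact Clopper-Pearson, 95%) cover counting error only.

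Of the members, Cdx2 and Cdx4 were matched by symbol in the RefSeq promoter table (GRCm38.p6). Their upstream windows are shown so that these 2 members can be compared in sequence. Each window holds 200 bases on the strand of its gene, 250 to 51 bases before the RefSeq start (chr5:147307300-147307499, minus strand, and chrX:103321148-103321347, plus strand). Capitals mark the octamer ATGCAAAT, the classical binding sequence of POU factors such as Pou5f1.
Cdx2: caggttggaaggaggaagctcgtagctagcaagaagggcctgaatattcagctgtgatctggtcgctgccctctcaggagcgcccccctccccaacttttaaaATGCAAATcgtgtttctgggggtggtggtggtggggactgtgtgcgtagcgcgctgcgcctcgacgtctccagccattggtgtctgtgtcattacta
Cdx4: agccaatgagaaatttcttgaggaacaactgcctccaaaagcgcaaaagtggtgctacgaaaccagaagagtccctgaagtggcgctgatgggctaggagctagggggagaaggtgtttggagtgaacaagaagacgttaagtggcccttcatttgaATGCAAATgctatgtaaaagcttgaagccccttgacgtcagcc
The octamer stood once in each window, from 147 bases before the start of Cdx2 and from 93 bases before that of Cdx4. Over both strands it was present in 1.32% of 32851 promoter windows of this length. CCAAT also stood once in each (28.4% of windows), and the cAMP response element TGACGTCA stood in the Cdx4 window only, 61 bases before the start (0.83% of windows). None of these matches overlapped another. The letters CTTTGA of the TCF/LEF core (11.8% of windows), TTTATNG of the Cdx site (7.65%) and AGGTCA of the retinoic acid receptor half-site (11.4%) were in neither window. The 6 motifs were chosen after the members and their windows were known, and a match is a run of letters, not a shown binding site. Pou5f1 itself had reads in 43 of 43 epiblast-like cells (98.6 ± 66.8 CPM) and in 46 of 48 mesoderm-like cells (53.5 ± 42.4 CPM).

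In the GRCm38 assembly Cdx1 (ENSMUSG00000024619) spans chr18:61018862-61036199 on the minus strand, Cdx2 (ENSMUSG00000029646) chr5:147300805-147307270 on the minus strand and Cdx4 (ENSMUSG00000031326) chrX:103321398-103330592 on the plus strand. Each has 3 exons and 1 annotated transcript, of 1750, 2261 and 1963 exon bases, and overlaps no other annotated gene.

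Cdx1 was read in every cell and at the same mean level in both classes, Cdx2 was higher and read in more cells among the epiblast-like cells, and Cdx4 was high in a subset of the epiblast-like cells and in 2 mesoderm-like cells. Levels are in counts per 1000000 counts of the same cell (CPM). A ratio was taken between the mean CPM of the classes with 1 CPM added to each, which understates the ratio of low genes, and a difference of at least 2-fold was called. Cdx1, known as an early and direct target of retinoic acid and Wnt signals, ranged in epiblast-like cells from 113 through a median of 1056 to 2645 CPM, and in mesoderm-like cells from 0.450 through 1164 to 3127 CPM. The distributions lay over each other: no epiblast-like cell was above the highest mesoderm-like cell. The mean was 1216 ± 645 CPM in epiblast-like cells (SD, n = 43 cells) and 1218 ± 645 CPM in mesoderm-like cells (n = 48 cells), a log2 ratio of 0.00.

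Cdx2, the member required for posterior axis growth and for the trophectoderm, ranged in epiblast-like cells from 0 through a median of 42.6 to 206 CPM, and in mesoderm-like cells from 0 through 1.92 to 109 CPM. The classes overlapped widely, since 9 epiblast-like cells were above every mesoderm-like cell and 8 mesoderm-like cells were above the epiblast-like median. Cdx2 had a read in 35 of 43 epiblast-like cells (81.4%, 66.6 to 91.6) and in 27 of 48 mesoderm-like cells (56.2%, 41.2 to 70.5). Its mean was 59.5 ± 57.4 CPM over epiblast-like and 18.5 ± 28.1 CPM over mesoderm-like cells, a log2 ratio of 1.63 (3.09-fold). With a minimum of 5 reads the numbers were 34 of 43 epiblast-like and 24 of 48 mesoderm-like cells, so that few of the positive cells rested on 1 to 4 reads.

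Cdx4, an X-linked gene that acts with the other members on Hox genes and in blood formation, ranged in epiblast-like cells from 0 through a median of 0 to 383 CPM, and in mesoderm-like cells from 0 through 0 to 66.6 CPM. It was read in 19 of 43 epiblast-like cells (44.2%, 29.1 to 60.1) and in 9 of 48 mesoderm-like cells (18.8%, 8.95 to 32.6). The epiblast-like cells were split between cells without a read and cells with much of it: 24 had none, 1 had 2 reads (1.59 CPM), and the other 18 had 18.3 to 383 CPM. Among the 9 mesoderm-like cells the reads were 1, 1, 2, 3, 3, 5, 6, 87 and 213, so that 2 cells carried nearly all of them. With a minimum of 5 reads the shares were 41.9% of epiblast-like cells (27 to 57.9) and 8.33% of mesoderm-like cells (2.32 to 20). The mean was 71.9 ± 112 CPM over epiblast-like and 2.23 ± 10.7 CPM over mesoderm-like cells, a log2 ratio of 4.50 (22.6-fold), and 14 epiblast-like cells were above every mesoderm-like cell. The size of this ratio moved with few cells: it was 5.14 without the highest cell of each class, and 3.52 when 16 marker genes set the classes, which moved 2 cells, one of them with 159 CPM of Cdx4, into the mesoderm-like class.

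Thus 2 of the 3 members were called higher in epiblast-like cells and none lower, where 8.18% of 18054 measured genes (a read in at least 3 cells) were called higher and 9.55% lower, and the median log2 ratio of all measured genes was 0.01. A list of 15 genes of other organs, used as a measure of stray reads, had a read in 4.19% of its gene and cell pairs in epiblast-like and 3.61% in mesoderm-like cells. These values are means over genes that were mostly silent. Pomc, read in 11 epiblast-like and 15 mesoderm-like cells, averaged 5.58 ± 13.3 and 5.41 ± 12.8 CPM. That is above the 2.23 CPM of Cdx4 in mesoderm-like cells, so Pomc is a poor measure of stray reads and may raise both shares. Cyp2e1 was read in 10 epiblast-like and 5 mesoderm-like cells, at means of 0.101 and 0.0434 CPM. A few reads of Cdx4 in a mesoderm-like cell therefore cannot be told apart from stray reads. The mesoderm-like cells with a Cdx4 read were also deeper, with a median of 3196853 counts, against 2513377 in mesoderm-like cells without, and when every cell was thinned to 500000 counts 5 mesoderm-like cells still had a read, while the number of epiblast-like cells with Cdx4 stayed at 19.

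**Figure D1:**
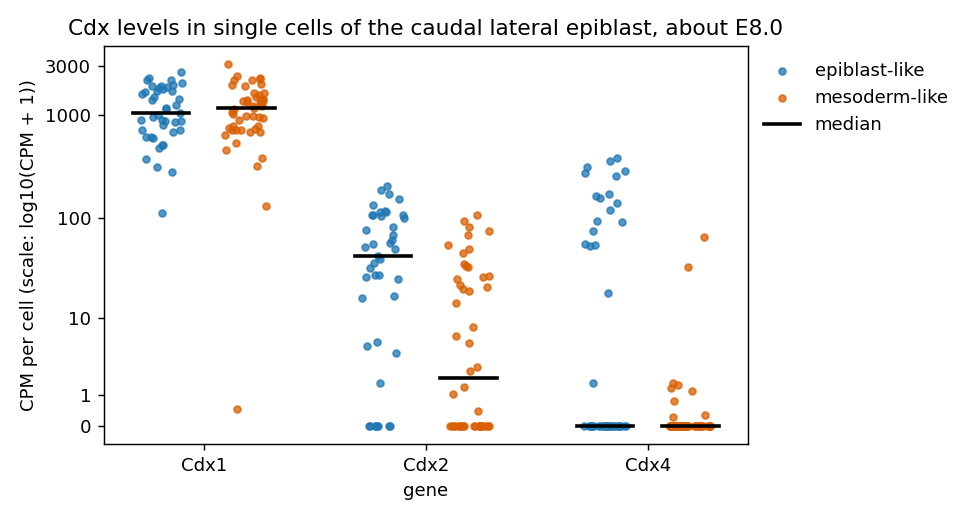
CPM of Cdx1, Cdx2 and Cdx4 in each of 43 epiblast-like (left of each pair, blue) and 48 mesoderm-like cells (right, orange), 1 point per cell, on a log10(CPM + 1) axis with black bars at the median. Cdx1 covers the same range in both classes apart from single low cells, and Cdx4 forms a band of 18 epiblast-like cells at 18.3 to 383 CPM over a row of cells at 0.

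Cdx1 was read in every cell, so the combinations differ only in Cdx2 and Cdx4, and a cell with all 3 is a cell with both of these. More of the epiblast-like cells had all 3 and more of the mesoderm-like cells had Cdx1 alone. All 3 genes were read together in 16 epiblast-like cells (37.2%, 23 to 53.3) and in 4 mesoderm-like cells (8.33%, 2.32 to 20). Cdx1 with Cdx2 but no Cdx4 was the commonest combination in both classes, in 19 epiblast-like (44.2%, 29.1 to 60.1) and 23 mesoderm-like cells (47.9%, 33.3 to 62.8). Cdx1 with Cdx4 but no Cdx2 was found in 3 epiblast-like (6.98%) and 5 mesoderm-like cells (10.4%). Cdx1 was the only member read in 5 epiblast-like cells (11.6%, 3.89 to 25.1) and in 16 mesoderm-like cells (33.3%, 20.4 to 48.4). The intervals count cells of 1 pool, so whether they overlap is no test between the classes. At this limit of 1 read the intervals of the shares with all 3 did not overlap between the classes, and those of the other combinations did. With at least 5 reads asked, Cdx1 was the only member in 16.3% of epiblast-like (6.81 to 30.7) and 47.9% of mesoderm-like cells (33.3 to 62.8), and after thinning to 500000 counts in 14% (5.30 to 27.9) and 43.8% (29.5 to 58.8), with intervals that did not overlap either.

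**Figure D2:**
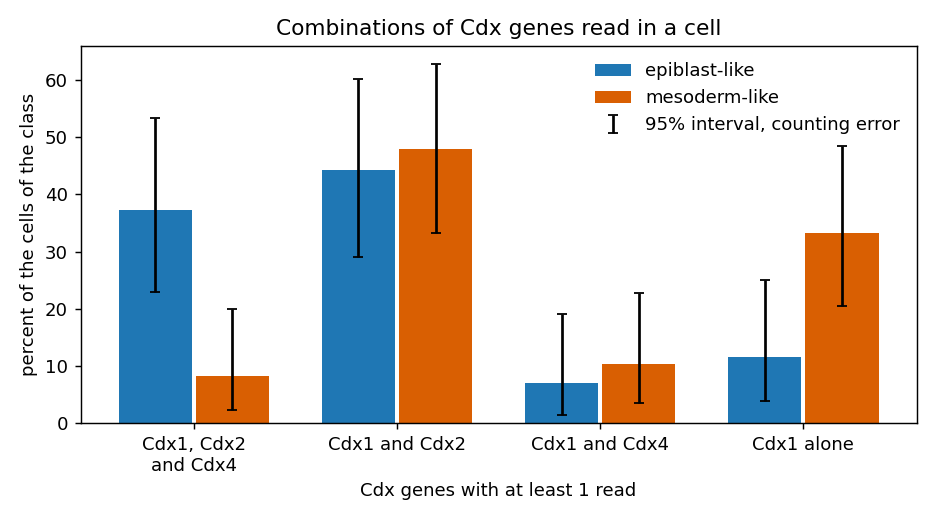
Percent of the cells of each class (bars, epiblast-like left and mesoderm-like right) in which the named Cdx genes had at least 1 read, with exact 95% intervals for counting error. All 3 genes were read in 37.2% of epiblast-like and 8.33% of mesoderm-like cells, and Cdx1 alone in 11.6% and 33.3%.

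Within the epiblast-like cells, those that had Cdx4 also had higher levels of the other members. Cdx1 averaged 1504 ± 662 CPM in the 19 cells with Cdx4 and 988 ± 543 CPM in the 24 cells without, with ranges of 113 to 2645 and 282 to 2070 CPM that overlapped over most of their length. Cdx2 averaged 84.9 ± 69.1 CPM in cells with Cdx4 and 39.3 ± 36.4 CPM in cells without. A Cdx2 read was found in 16 of 19 cells with Cdx4 (84.2%, 60.4 to 96.6) and in 19 of 24 without (79.2%, 57.8 to 92.9), with intervals that overlapped. Over the 43 epiblast-like cells the correlation of log2(CPM + 1) was 0.40 between Cdx1 and Cdx2, 0.44 between Cdx1 and Cdx4 and 0.25 between Cdx2 and Cdx4 (Pearson's r). Over the 48 mesoderm-like cells the same pairs had 0.25, -0.05 and 0.21. The 3 values of a cell come from 1 library and share its depth and quality, and Cdx1 fell with the total count of a cell, with Spearman's rho of -0.41 over epiblast-like and -0.46 over mesoderm-like cells. Pearson's r, used for the pairs, was -0.21 over epiblast-like and -0.41 over mesoderm-like cells. The part of depth in these correlations was not tested. Levels also differed between the rows of the plate: the mean of the epiblast-like cells ran from 579 CPM of Cdx1 and 0 of Cdx4 in row B to 2050 and 231 CPM in row F. Within rows the differences were uneven. Cdx1 averaged 727 CPM in cells with Cdx4 and 696 CPM in cells without in row A, and 2011 and 1101 CPM in row D. Row F held 1 epiblast-like cell without Cdx4 and row H 1 with it. The part of the plate row in these levels was not tested. In the 7 rows that held epiblast-like cells with and without Cdx4, the mean of Cdx1 was higher in the cells with Cdx4 in 6 and that of Cdx2 in 6, with row E the exception in both, and the weighted differences within rows were 459 CPM for Cdx1 (516 CPM over all rows together) and 49.8 CPM for Cdx2 (45.5 CPM). After each row's mean was taken off, r over the epiblast-like cells was 0.46 for Cdx1 and Cdx2, 0.43 for Cdx1 and Cdx4 and 0.36 for Cdx2 and Cdx4.

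**Figure D3:**
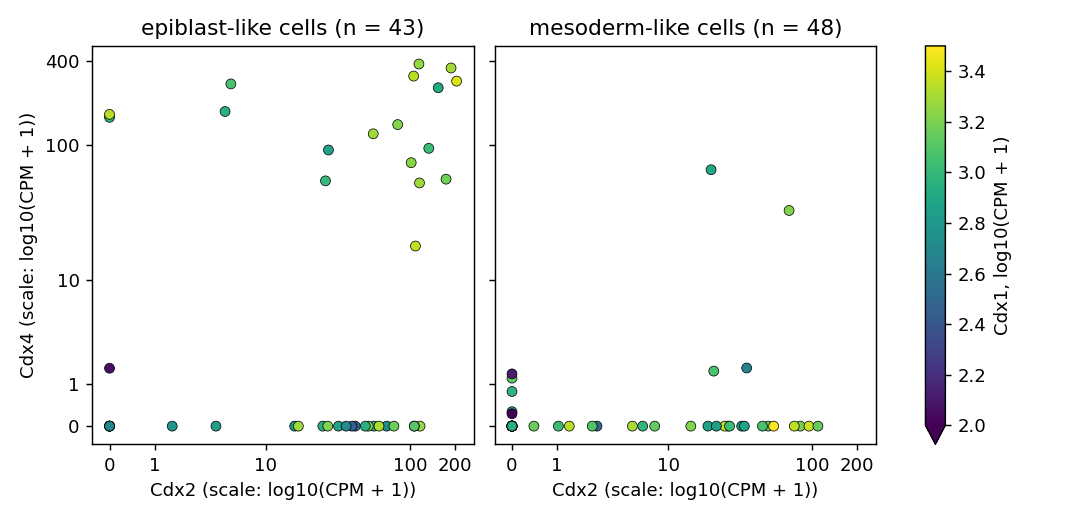
Cdx4 against Cdx2 per cell, both on log10(CPM + 1) axes, for the 43 epiblast-like cells (left panel) and the 48 mesoderm-like cells (right panel), coloured by Cdx1. The upper right of the left panel holds most of the 16 epiblast-like cells with all 3 genes, while the right panel has 2 cells with more than 6 reads of Cdx4.

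The spread between cells was not the same for the members. The coefficient of variation (CV, the SD over the mean) of Cdx1 was 0.531 in epiblast-like and 0.530 in mesoderm-like cells, that of Cdx2 0.966 and 1.51, and that of Cdx4 1.56 and 4.77. Cdx4 stood out from genes of its own level: 2051 genes had an epiblast-like mean within 1.5-fold of that of Cdx4, they were read in a median of 83.7% of the epiblast-like cells, and 0.829% of them were read in fewer cells than Cdx4. Cdx2 lay in the middle of the 2163 genes of its level, with a read in 81.4% of cells beside a median of 79.1%. Cdx1 had a CV of 0.531 beside a median of 0.332 for the 96 genes of its level. In mesoderm-like cells Cdx4 did not stand out from genes of its level. It was read in 18.8% of cells beside a median of 10.4%, with a CV of 4.77 beside a median of 4.10. The CV of Cdx2 there was 1.51 beside a median of 1.90.

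Per length of transcript Cdx1 made up nearly all of the family's reads. In reads per kilobase of exon and per 1000000 counts (RPKM) it averaged 695 ± 369 in epiblast-like and 696 ± 369 in mesoderm-like cells. Cdx2 averaged 26.3 ± 25.4 RPKM over epiblast-like and 8.20 ± 12.4 RPKM over mesoderm-like cells, and Cdx4 36.6 ± 57.2 RPKM over epiblast-like and 1.14 ± 5.43 RPKM over mesoderm-like cells. Of the summed RPKM of the family, the median share of Cdx1 was 93.9% in epiblast-like cells (69.7 to 100%) and 99.7% in mesoderm-like cells (69.2 to 100%). Cdx2 reached at most 11.8% of the family sum in an epiblast-like and 5.74% in a mesoderm-like cell, and Cdx4 at most 19.9% and 30.8%. The 69.2% and the 30.8% are those of the mesoderm-like cell in well D4, which had 2 reads of Cdx1 and 1 of Cdx4; without it the lowest share of Cdx1 was 91.4% and the highest of Cdx4 6.83% in mesoderm-like cells. By mean RPKM Cdx1 was the highest of 48 measured homeobox genes on the lists in both classes, and stood 34th of 18043 genes with a length in epiblast-like and 41st in mesoderm-like cells. Among the homeobox genes Cdx4 was 8th and Cdx2 9th in epiblast-like cells, and Cdx4 28th and Cdx2 17th in mesoderm-like cells.

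Single cells stood far from the others in Cdx1, and they are named here because of these values. The mesoderm-like cell in well D4, the most deeply counted of all with 4439571 counts, had 2 reads of Cdx1 (0.450 CPM, against a mean of 1244 CPM in the other 47), none of Cdx2 and 1 of Cdx4. It was the only cell with reads of Cer1, which encodes a secreted antagonist of Nodal, Bmp and Wnt signals (7596 reads, 1711 CPM), and it had 430 CPM of Ripply2, a repressor at the forming somite boundary, against a mean of 0.428 CPM in the other 47. Its Msgn1, a factor of the posterior presomitic mesoderm, was at 1 read, and its Fst, which encodes the activin antagonist follistatin, at 3 reads, both below every other mesoderm-like cell. The next lowest cells in Cdx1 were the epiblast-like cell A1 at 113 CPM and the mesoderm-like cell D10 at 131 CPM. Without D4 the log2 ratio of Cdx1 was -0.03.

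Signals that the Cdx genes are known to respond to were divided between the classes. Of 20 ligands, receptors and nuclear factors of the Wnt, Fgf and retinoic acid pathways, all measured, 3 were higher and 7 lower in epiblast-like cells and 10 differed by less than 2-fold (median log2 ratio -0.45). The shares over all measured genes were 8.18% higher and 9.55% lower. Among the Wnt ligands, Wnt8a averaged 119 ± 102 CPM in epiblast-like cells, against 31 ± 48.4 CPM in mesoderm-like cells, and Wnt5b 50.2 ± 73.4 CPM, against 21 ± 35.1 CPM. Rarg, which encodes a retinoic acid receptor, averaged 22.5 ± 27.2 CPM in epiblast-like cells, against 4.28 ± 12.4 CPM in mesoderm-like cells. The Fgf ligands Fgf3 (epiblast-like 9.01 ± 22.2, mesoderm-like 131 ± 126 CPM) and Fgf4 (epiblast-like 7.56 ± 30.7, mesoderm-like 68.2 ± 86.7 CPM) were lower in epiblast-like cells. So were the nuclear effectors of Wnt signalling Lef1 (epiblast-like 61.5 ± 51.9, mesoderm-like 374 ± 211 CPM) and Tcf7l1 (epiblast-like 11.2 ± 15.6, mesoderm-like 78 ± 65.6 CPM). Fgf17, Tcf7l2 and Rxra made up the rest of the 7. Wnt8a is also among the epiblast markers and Lef1 among the mesoderm markers used to check the classes. Wnt3a and Fgf8, at 28.8 ± 58.8 and 12.4 ± 19.9 CPM in epiblast-like and 31.6 ± 44.9 and 16.5 ± 30.2 CPM in mesoderm-like cells, differed by less than 2-fold.

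Of 15 genes of the trunk progenitor network, 13 were measured, of which 4 were higher and 3 lower in epiblast-like cells and 6 under 2-fold (median log2 ratio -0.54). Over all measured genes 8.18% were higher and 9.55% lower. Nkx1-2 (epiblast-like 967 ± 359, mesoderm-like 50.8 ± 96.2 CPM) is counted among the 4, but it helped to define the classes and is no finding. Sall4, a zinc finger factor of progenitors, averaged 850 ± 274 CPM in epiblast-like cells, against 339 ± 189 CPM in mesoderm-like cells. Cyp26a1, whose product breaks down retinoic acid, was read in 11 epiblast-like cells and in none of the mesoderm-like cells. It therefore passed the limit of 3 cells through the epiblast-like cells alone. The homeobox gene Evx1 was read in 8 epiblast-like and 5 mesoderm-like cells. Tbx6, a T-box factor of presomitic mesoderm, was lower (epiblast-like 13 ± 36.9, mesoderm-like 325 ± 221 CPM). So were Rspo3, which encodes an amplifier of Wnt signals (epiblast-like 13.6 ± 39, mesoderm-like 336 ± 199 CPM), and Dll1, which encodes a Notch ligand (epiblast-like 19.3 ± 79.2, mesoderm-like 385 ± 237 CPM). Tbx6 and Dll1 are also among the mesoderm markers used to check the classes, so their calls add nothing to that check.

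T and Sox2 mark neuromesodermal progenitors when present in the same cell. A read of both was also found in 25 mesoderm-like cells and not in the other 23, so 1 read of each is not taken here as the mark of a progenitor. With at least 5 reads of each, 3 mesoderm-like cells had both. At 1 read, Cdx2 was read in 16 of the 25 mesoderm-like cells with both and in 11 of the other 23, and Cdx4 in 6 and 3. Cdx2 was read in 23 of 25 epiblast-like cells with a read of both T and Sox2 (92.0%, 74 to 99.0) and in 12 of the other 18 (66.7%, 41 to 86.7), and Cdx4 in 12 of 25 (48%) and 7 of 18 (38.9%). With at least 5 reads asked of each gene, the shares for Cdx2 were 14 of 16 (87.5%, 61.7 to 98.4) and 20 of 27 (74.1%, 53.7 to 88.9), and those for Cdx4 9 of 16 (56.2%) and 9 of 27 (33.3%). By T alone, Cdx4 was read in 15 of 32 epiblast-like cells with T (46.9%, 29.1 to 65.3) and in 4 of 11 without (36.4%, 10.9 to 69.2), and at 5 reads in 15 of 28 (53.6%, 33.9 to 72.5) and 3 of 15 (20%, 4.33 to 48.1). The intervals of each of these pairs overlapped. Of the 11 epiblast-like cells with Cyp26a1, 6 had a read of Cdx4, as did 13 of the 32 without.

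Most of the measured central Hox genes, known targets of Cdx factors, were read in a larger share of the epiblast-like cells that had Cdx4. Most were also read in a larger share of the epiblast-like cells that had Cdx2, with Hoxb8 the exception (28.6% with Cdx2 and 37.5% without). Of 19 Hox genes of paralogue groups 4 to 9, 10 were measured, of which 5 were higher in epiblast-like cells, none lower and 5 under 2-fold (median log2 ratio 0.93, or 1.33 with genes absent from a class set to 3 counts over that class). Of all measured genes 8.18% were called higher and 9.55% lower in epiblast-like cells. Hoxb7 was read in 16 epiblast-like cells and 1 mesoderm-like cell, and Hoxc4 in 14 and 4. Hoxb8, Hoxb9 and Hoxb6 were read in 13, 7 and 4 epiblast-like cells and in no mesoderm-like cell. Hoxb8, Hoxb9 and Hoxb6 therefore passed the limit of 3 cells only through the class where they are high, so their calls are no support for a difference. Of the 8 genes of groups 1 to 3, 5 were lower in epiblast-like cells, none higher and 3 under 2-fold (median log2 ratio -1.12), among them Hoxb1 (epiblast-like 200 ± 122, mesoderm-like 487 ± 337 CPM) and Hoxb2 (epiblast-like 23.4 ± 19.1, mesoderm-like 50.8 ± 31.1 CPM). Hoxa2, Hoxb3 and Hoxd3 were the others, and Hoxd3 passed the limit of 3 cells through the mesoderm-like cells alone. None of the 12 genes of groups 10 to 13 was measured.

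Within the epiblast-like cells, the summed level of the 19 central genes averaged 113 ± 74.2 CPM in cells with Cdx4 and 51.3 ± 59.9 CPM in cells without, and a median of 4 and 2 of these genes were read. Hoxb7 was read in 11 of 19 cells with Cdx4 and in 5 of 24 without (57.9% and 20.8%), Hoxc4 in 10 and 4, Hoxb8 in 9 and 4, Hoxb9 in 5 and 2, and Hoxb4 in 18 and 16. Of the 10 measured central genes 9 were read in a larger share of the cells with Cdx4, as were 47.9% of 18043 other measured genes; the exception, Hoxd4, was read in no cell with Cdx4 and 1 without. The summed level of the 8 anterior genes was 1067 ± 402 CPM in epiblast-like cells with Cdx4 and 1129 ± 448 CPM in those without. The SD is that of single cells and not the error of a mean, for these sums as for the central ones. The number of central Hox genes read in an epiblast-like cell had a correlation of 0.60 with Cdx1, 0.46 with Cdx2 and 0.56 with Cdx4 (Pearson's r with log2(CPM + 1), n = 43 cells), and in a mesoderm-like cell of 0.16, -0.09 and -0.16 (n = 48 cells). Here too the values of a cell share 1 library; the cells with Cdx4 had a median of 2303884 counts and 8291 genes, against 2578843 counts and 8160 genes in the epiblast-like cells without, and the part of library quality was not tested. Within plate rows the summed central level was higher in the cells with Cdx4 in 5 of 7 rows, with a weighted difference of 66.8 CPM, and r was 0.51 for Cdx1, 0.46 for Cdx2 and 0.60 for Cdx4 over the epiblast-like cells.

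**Figure D4:**
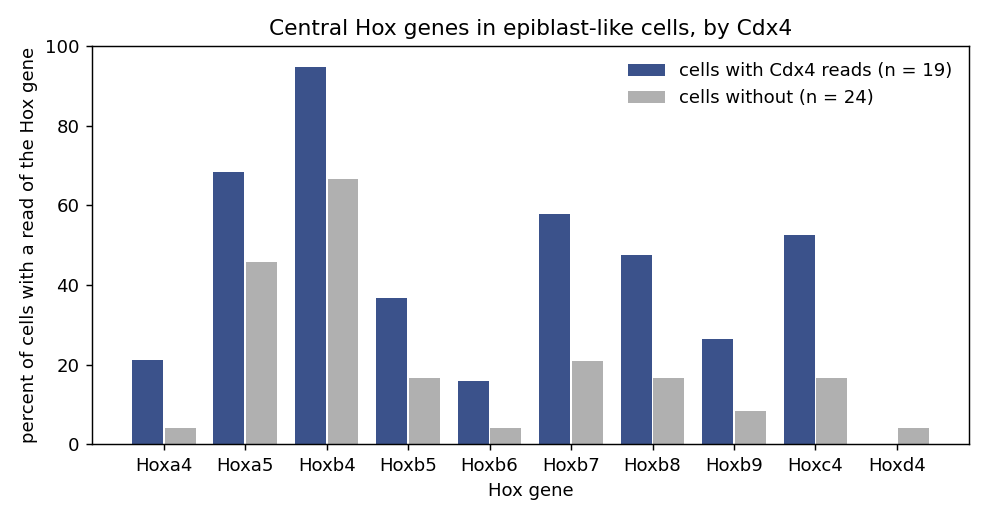
Percent of epiblast-like cells with a read of each of 10 central Hox genes, for the 19 cells with a read of Cdx4 (left bars) and the 24 without (right bars). Of the 10, 9 were read in a larger share of the cells with Cdx4, with 57.9% and 20.8% for Hoxb7, and Hoxd4 was read in 1 cell without Cdx4.

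Few genes of the known programmes of Cdx2 outside the axis were read. Genes of the intestinal epithelium had a read in 0.620% of gene and cell pairs among epiblast-like and 2.08% among mesoderm-like cells, and trophoblast genes in 5.12% and 1.67%, beside the 4.19% and 3.61% of the genes of other organs, Pomc included. Of the 15 intestinal genes only 2 were measured, with 1 lower in epiblast-like cells and 1 under 2-fold. The first was Cdh17, which encodes an intestinal cadherin and is a known Cdx2 target in gut cells, with reads in 2 epiblast-like and 12 mesoderm-like cells. Among the mesoderm-like cells Cdh17 was read in 5 of 27 with Cdx2 and in 7 of 21 without. Of 10 trophoblast genes 3 were measured and all 3 were called higher in epiblast-like cells, each from few cells. Tfap2c was read in 8 epiblast-like and 2 mesoderm-like cells, and Eomes and Krt7 in 5 epiblast-like and no mesoderm-like cell each. Eomes and Krt7 passed the limit of 3 cells through the epiblast-like cells alone, so their calls are no support for a difference. Of the other ParaHox genes, Gsx1 had a read in 1 epiblast-like cell, and Gsx2 and Pdx1, which lies beside Cdx2, had none. Of 27 further homeobox genes measured, Nkx1-2 included, 6 were higher and 13 lower in epiblast-like cells and 8 under 2-fold (median log2 ratio -0.82). Beside these counts and those of the intestinal and trophoblast genes, 8.18% of all measured genes were higher and 9.55% lower.

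Of 6 measured genes near Cdx2 or Cdx4 on the chromosome, none was called higher in epiblast-like cells and 1 was called lower, Flt3, from 4 epiblast-like and 2 mesoderm-like cells. Pan3, near Cdx2, averaged 222 ± 145 CPM in epiblast-like cells, against 225 ± 133 CPM in mesoderm-like cells. Near Cdx4, Chic1 was read in 28 epiblast-like and 21 mesoderm-like cells and averaged 37 ± 60.7 CPM over epiblast-like and 31.8 ± 63.5 CPM over mesoderm-like cells. Because Cdx4 is X-linked, the cells were also divided by reads of the Y-linked genes Ddx3y, Eif2s3y, Kdm5d and Uty, which 34 of 43 epiblast-like and 27 of 48 mesoderm-like cells had; Xist had reads in 4 and 16. Cdx4 was read in 18 of the 34 epiblast-like cells with a Y-linked read (52.9%, 35.1 to 70.2) and in 1 of the 9 without (11.1%, 0.281 to 48.2). Divided by Xist instead, Cdx4 was read in 2 of the 4 epiblast-like cells with Xist and in 17 of the 39 without (43.6%, 27.8 to 60.4). Cdx2 was read in 26 of the 34 epiblast-like cells with a Y-linked read and in 9 of the 9 without. The log2 ratio between the classes was 4.10 for Cdx4 and 1.93 for Cdx2 among cells with a Y-linked read, and 4.89 and 1.59 among cells without, so that the 2-fold call held on either side. The ratio of Cdx4 among cells without a Y-linked read rests on 1 epiblast-like cell.

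The genes whose levels over the 91 cells were most like those of each member were found by Pearson's r of log2(CPM + 1) among 11533 genes read in at least 20% of the cells. For Cdx1 these were Fst (0.57), Tgif1 (0.52), Ccnd2 (0.50), Rac1 (0.45) and Etv5 (0.44). For Cdx2 they were Cdkal1 (0.51), Lamtor4 (0.47), Cdh1 (0.47), which encodes E-cadherin, Alpl (0.45) and Nkx1-2 (0.44). For Cdx4 they were Fgfbp3 (0.52), Pmp22 (0.49), Trh (0.49), which encodes thyrotropin-releasing hormone, Sema3e (0.48) and Sox2 (0.47). Over all 91 cells such values contain the difference between the classes for Cdx2 and Cdx4.

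Within the 43 epiblast-like cells the lists were different, with no gene in common with the first list of the same member. Genes most like Cdx1 among 11695 included Eno1b (0.82), Gm4735 (0.80) and Rps18 (0.77). Eno1b is a close copy of the glycolytic enzyme gene Eno1, with which it can share reads, and Rps18 encodes a ribosomal protein. Cdx2 was most like Zfp850 (0.63), Spata13 (0.57), Aco1 (0.56), Pdcd2l (0.55) and Etv5 (0.55), and Cdx4 like Palm (0.58), Ptpn9 (0.56), Etnk2 (0.56), Ap3b1 (0.53) and Gm7324 (0.52). The highest values were those of Cdx1, the member that also fell with the total count of a cell (Pearson's r of -0.21 over these cells). Among the listed progenitor and signalling genes, Cdx1 had 0.49 with Pou5f1 in epiblast-like cells and 0.50 with Tbx6 in mesoderm-like cells, and Cdx2 had 0.52 with Nkx1-2 in epiblast-like cells.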

How the data were processed

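The authors aligned Smart-seq2 reads of 91 cells to GRCm38 (mm10) with HISAT2 and deposited featureCounts counts of reads per gene, without normalization. Tool versions, the annotation and the use of strand were not given in the sources used here. All 91 columns were mapped to cells, and no pair of cells was identical. Counts were scaled to 1000000 per cell (CPM) with Python 3.11.15, numpy 2.4.6, scipy 1.17.1 and pandas 2.3.3. Symbols and exon lengths for RPKM came from GENCODE M21 (53274 of 53379 identifiers). Genes with a read in at least 3 cells were compared between classes by the mean CPM of each, with 1 CPM added as pseudocount. All cells were kept, and doublets were not called in wells sorted to hold 1 cell. Without a named embryo no p-value is given. Reads are not independent molecules. The steps were tested on simulated data. The members and gene lists were chosen with earlier results of these data known.

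Named genes are the members and, of each list, up to 4 that differed most among those past 2-fold and read in 50% or more of the higher class, plus members behind counts of 5 or fewer, the 5 most correlated genes of each member, and Nkx1-2, Aldh1a2, T and Sox2. The genes of cell D4, Chic1, Pan3, Flt3, the X- and Y-linked genes, Pou5f1, Wnt3a, Fgf8, Hoxb4, Hoxd4, Pomc, Cyp2e1, Hoxb8, Hoxb9 and Hoxc4 were named after their values were seen. A few genes that the rule names are not reported here. Alternatives used another pseudocount, scaling, class rule, detection limit, depth or subset of cells.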

Additional observations from a re-analysis of the deposited data

How the results depend on the processing

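Of 196 alternatives for 25 results, 189 kept the call or stayed within the main interval or within 1.5 times the main count. A turn of direction could be counted only for the called ratios, those of Cdx2 and Cdx4, and there was none. Lengths from the longest transcript could change nothing, since each member has 1 transcript. The share with all 3 genes and the share with Cdx2 and Cdx4 had the same values but were counted separately. Leaving out a plate row made up 72 of the alternatives, and none of these moved. Shares of cells with Cdx1 stayed at 97.9% to 100%. The 189 are therefore not all separate checks. By medians over cells the log2 ratio of Cdx4 was 0.00, because the median cell of each class had no read. With at least 10 CPM asked, Cdx2 was present in 39.6%, Cdx4 in 4.17% and Cdx1 alone in 58.3% of mesoderm-like cells, and with at least 5 reads Cdx4 was present in 8.33% of them. With a pseudocount of 10 CPM the log2 ratios were 2.74 for Cdx4 and 1.28 for Cdx2, 1 central Hox gene was called higher and 2 anterior Hox genes lower in epiblast-like cells. Leaving out each plate row in turn gave log2 ratios of -0.13 to 0.08 for Cdx1, 1.40 to 1.83 for Cdx2 and 3.88 (without row F) to 5.13 (without row G) for Cdx4. The division by Y-linked reads, the values without D4 and those within plate rows were chosen after seeing the data. No paired analysis was possible because the cells belong to 1 pool, in which a replicate number only names a cell. The counts limit statements on low levels, since several reads can come from 1 molecule and 1 to 4 reads made up most of the Cdx4 calls in mesoderm-like cells. Cells were not tied to embryos, so the spread between embryos is unknown.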
